A study of Homo sapiens with 6 samples.

Results

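The SLC25 genes encode the mitochondrial carriers, the proteins that move metabolites, nucleotides and cofactors across the inner membrane of the mitochondrion. The members described here are the rows of the deposited table whose symbol is SLC25A followed by a number, 46 of 18780 gene symbols. SLC25A6 and SLC25A52 were not analysed here. The RNA came from PC-3, an established human prostate cancer line known to lack functional p53. Cells were given trans-Gnetin H (TGH), which is built from resveratrol units, at a dose of 2.5 µM for 24 h (n = 3 libraries), or the solvent DMSO (n = 3 libraries). By its title the study concerns depriving prostate cancer cells of glucose with this compound. Only this line, dose and time were measured. The values are log2(TPM + 1), where TPM is a read level scaled by transcript length and library total, so each value is relative to all other RNA of its library. In bulk RNA, fewer cells of a kind and less RNA per cell cannot be told apart.

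Each carrier is built from repeats of a pair of membrane-spanning helices and alternates between a state open to the cytosol and a state open to the mitochondrial matrix. The ADP/ATP translocases and the phosphate carrier serve ATP synthase, the aspartate/glutamate and oxoglutarate carriers run the malate-aspartate shuttle that brings reducing power from glycolysis into the matrix, and the citrate carrier exports carbon for lipid synthesis. Other members carry iron, coenzyme A, S-adenosylmethionine, glutathione, folate or amino acids.

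TGH moved individual carriers in both directions by small amounts. Of the 46 carriers, 36 averaged at least 1 TPM and were tested, 6 were lower than that, and 4 stayed under 0.1 TPM in every library and are reported as not expressed. Of the 36, TGH raised 8 and lowered 11, and 17 were not called, at a Benjamini-Hochberg adjusted p under 0.05 over all genes tested (limma). The 19 called carriers are 52.8% of those tested, while 55.2% of all 12018 genes tested were called, 28.9% higher and 26.3% lower. A share so near that of all genes is not a result about the family. The median difference, TGH minus DMSO, was 0.01 on the log2 scale for the carriers and 0.02 for all genes tested. The carriers ran from -0.36 for SLC25A13 to 0.46 for SLC25A42, so that 0 of 36 reached 0.5 in size, against 11.7% of all genes tested. With a pseudocount of 0.1 in place of 1, SLC25A42 reached 0.57 and SLC25A27 0.53. The number called higher was 4 without TGH replicate 1 and 5 without TGH replicate 2.

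The libraries of the groups did not overlap for 21 of the 36 carriers, against 64.4% of all genes tested. TGH lay above DMSO in 9 of them, against 33.6% of all genes tested, and below in 12, against 30.8%. The TGH libraries listed 1342 to 1498 genes at exactly 0, while DMSO replicates 1, 2 and 3 listed 3074, 3185 and 1530. None of the 36 carriers was listed at 0 in any library, and the lowest group mean among them was 1.10 TPM, for SLC25A27 in DMSO. Of the markers of the line, KRT8, KRT18, EPCAM, CDH1 and VIM were all expressed, and 4 of the 5 were called lower. KRT8 had 424 ± 1.90 TPM with TGH and 604 ± 13.9 TPM in DMSO and fell by 0.51 (SE 0.020, adjusted p = 6.7e-06). KRT18 had 421 ± 2.95 TPM with TGH and 578 ± 24.7 TPM in DMSO and fell by 0.45 (SE 0.031, adjusted p = 5.5e-05). On the deposited log2(TPM + 1) scale both falls were larger than that of any tested carrier. VIM fell by 0.25 (adjusted p = 0.00504) and EPCAM by 0.13 (adjusted p = 0.00498), while CDH1 had 51.9 ± 0.849 TPM with TGH and 49.6 ± 1.04 TPM in DMSO and was not called. The part of these markers in the carriers' differences was not tested. PTPRC, PECAM1, DCN, CHGA and SYP, which mark other cell types, were at or below 0.383 TPM. COL1A1, a fibroblast collagen, was the exception, with 2.54 to 2.90 TPM in TGH libraries and 3.24 to 3.52 TPM in DMSO libraries. Nothing in the labels says that the libraries of a group came from separate cultures, so p-values measure the spread between these libraries, which may be technical.

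**Figure D1:**
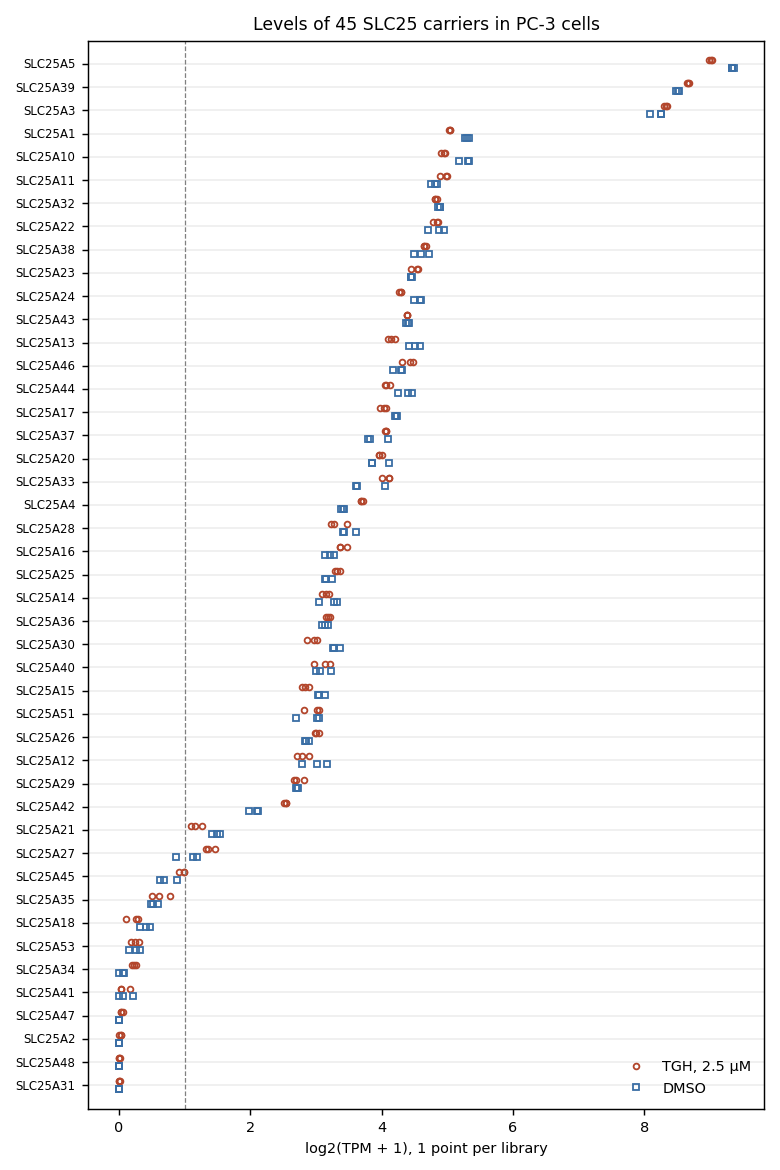
Level of 45 of the 46 carriers as log2(TPM + 1), with 1 point per library (circles, TGH at 2.5 µM; squares, DMSO; 3 libraries each), ordered by the mean over all libraries. The dashed line marks 1 TPM; SLC25A5, SLC25A39 and SLC25A3 stand above all other carriers and 4 carriers sit at or near 0.

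Among themselves the carriers spanned a wide range of levels. SLC25A5, SLC25A39 and SLC25A3 averaged above 50 TPM, 18 averaged between 10 and 50 TPM, and 15 of those tested averaged under 10 TPM. Summed over all 46, the family came to 1722, 1737 and 1738 TPM in the TGH libraries, against 1790, 1825 and 1838 TPM in the DMSO libraries. The sum was thus lower in every TGH library, as it was after scaling the libraries to a common median. SLC25A5 alone made up 29.5% to 30.0% of it in TGH libraries and 35.0% to 36.7% in DMSO libraries. The mean sum was 1732 TPM with TGH and 1818 TPM in DMSO, while SLC25A5 averaged 516 TPM with TGH and 648 TPM in DMSO. SLC25A5 thus fell by more TPM than the sum, and the carriers other than SLC25A5 together were higher on average with TGH. Among them, SLC25A39 averaged 405 TPM with TGH and 363 TPM in DMSO, and SLC25A3 321 and 294 TPM. All carriers other than SLC25A5, SLC25A39 and SLC25A3 together came to 490.4 ± 3.08 TPM with TGH and 512 ± 9.44 TPM in DMSO (SD, n = 3 each, as for all values given with ± here).

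The ADP/ATP translocases export ATP from the matrix in exchange for ADP, and the isoforms measured went in opposite directions. SLC25A5 encodes ANT2, the form typical of dividing cells. It was at 508, 522 and 519 TPM in TGH libraries, against 658, 645 and 643 TPM in DMSO libraries. SLC25A5 fell by 0.33 (SE 0.017, adjusted p = 2e-05) on the log2 scale, with every TGH library below every DMSO library. SLC25A4 encodes ANT1, the form typical of heart and skeletal muscle. It was at 11.9, 11.9 and 12.2 TPM in TGH libraries, against 9.74, 9.63 and 9.39 TPM in DMSO libraries, and rose by 0.30 (SE 0.033, adjusted p = 0.000446). All 3 TGH libraries lay above the controls. SLC25A31, the germ line form ANT4, was not expressed, listed at 0 in 5 libraries and at 0.00803 TPM in TGH replicate 3.

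ANT1 stayed the minor form. SLC25A4 made up 2.27% ± 0.0278 of the transcripts of SLC25A4 and SLC25A5 together with TGH and 1.46% ± 0.0166 in DMSO (exact two-sided permutation p = 0.1, the smallest that 3 against 3 libraries allow). This share was 1 of 3 isoform pairs compared, and the exact permutation p adjusted over the 3 was 0.3. No 50-base window of the SLC25A4 transcripts of GENCODE v29 occurs in another gene. Of the SLC25A5 windows 4.57% do, among others in the pseudogene SLC25A5P3. In addition, 17.8% of its exon bases lie opposite its antisense gene SLC25A5-AS1, which was at 0.428 to 0.667 TPM in TGH libraries and 0.411 to 0.510 TPM in DMSO libraries. In all, 6 called carriers, among them SLC25A5, SLC25A11, SLC25A21, SLC25A24 and SLC25A25, have over 10% of their exon bases opposite another gene. The sources used here do not say whether counting used the strand, so reads of such partners cannot be told apart.

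The promoters of both are shown because the genes moved apart. They come from RefSeq on GRCh38.p14, 250 bases before to 50 after the transcription start, and capitals in these and the later promoters mark matches to the motifs named further on. Neither of these holds one.
SLC25A4 promoter, chr4:185143016-185143315 on the plus strand: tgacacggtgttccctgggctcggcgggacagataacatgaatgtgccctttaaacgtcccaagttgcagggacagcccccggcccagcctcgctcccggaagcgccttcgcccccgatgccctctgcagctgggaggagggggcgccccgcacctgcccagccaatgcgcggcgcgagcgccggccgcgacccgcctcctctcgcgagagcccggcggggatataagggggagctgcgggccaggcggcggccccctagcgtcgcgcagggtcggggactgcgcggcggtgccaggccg
SLC25A5 promoter, chrX:119468194-119468493 on the plus strand: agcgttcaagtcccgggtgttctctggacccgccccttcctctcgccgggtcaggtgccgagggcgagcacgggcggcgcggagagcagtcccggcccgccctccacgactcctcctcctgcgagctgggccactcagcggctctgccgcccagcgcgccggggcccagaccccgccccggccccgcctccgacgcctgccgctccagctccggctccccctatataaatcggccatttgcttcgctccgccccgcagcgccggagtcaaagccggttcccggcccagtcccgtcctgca

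SLC25A3, which brings phosphate and copper into the matrix, was at 324, 316 and 321 TPM in TGH libraries, against 272, 304 and 305 TPM in DMSO libraries. All TGH libraries were higher, but the difference of 0.13 missed the threshold (SE 0.045, adjusted p = 0.0508). DMSO replicate 1 lay apart, and without it SLC25A3 was called at a smaller difference (0.07, adjusted p = 0.0194). It was also called without DMSO replicate 2 (0.15, adjusted p = 0.0441) and without DMSO replicate 3 (0.15, adjusted p = 0.0415). With all libraries it was called with a pseudocount of 0.1 (adjusted p = 0.0494), a limit of 5 TPM (adjusted p = 0.0475) or robust variances (adjusted p = 0.0375). These are 6 of 16 alternatives, and in the others SLC25A3 stayed uncalled. Median scaling gave 0.09 (adjusted p = 0.117) and quantile normalization 0.10 (adjusted p = 0.151). Leaving out TGH replicate 1, 2 or 3 gave an adjusted p of 0.135, 0.0917 and 0.120.

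The ATP-Mg/phosphate carriers, which set the adenine nucleotide pool of the matrix, also split. SLC25A24 was at 18.7, 18.3 and 18.7 TPM in TGH libraries, against 22.9, 21.5 and 23.2 TPM in DMSO libraries, and fell by 0.26 (SE 0.037, adjusted p = 0.00122) without overlap. SLC25A25 was at 8.76, 9.03 and 9.33 TPM in TGH libraries, against 7.85, 8.48 and 7.94 TPM in DMSO libraries, and rose by 0.14 (SE 0.044, adjusted p = 0.0303). That call was lost without TGH replicate 2 (0.14, adjusted p = 0.0821), without TGH replicate 3 (0.12, adjusted p = 0.112), without DMSO replicate 1 (0.12, adjusted p = 0.0682) and without DMSO replicate 3 (0.13, adjusted p = 0.0821). It was also lost after median scaling (0.11, adjusted p = 0.0734) after quantile normalization (0.09, adjusted p = 0.127) and against DMSO replicate 3 alone (0.17, adjusted p = 0.0559). SLC25A23 had 21.9 ± 0.980 TPM with TGH and 20.9 ± 0.0707 TPM in DMSO and was not called. SLC25A41, of the same group, was low, at 0.121, 0.0227 and 0.0192 TPM in TGH libraries, against 0, 0.0457 and 0.164 TPM in DMSO libraries.

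**Figure D2:**
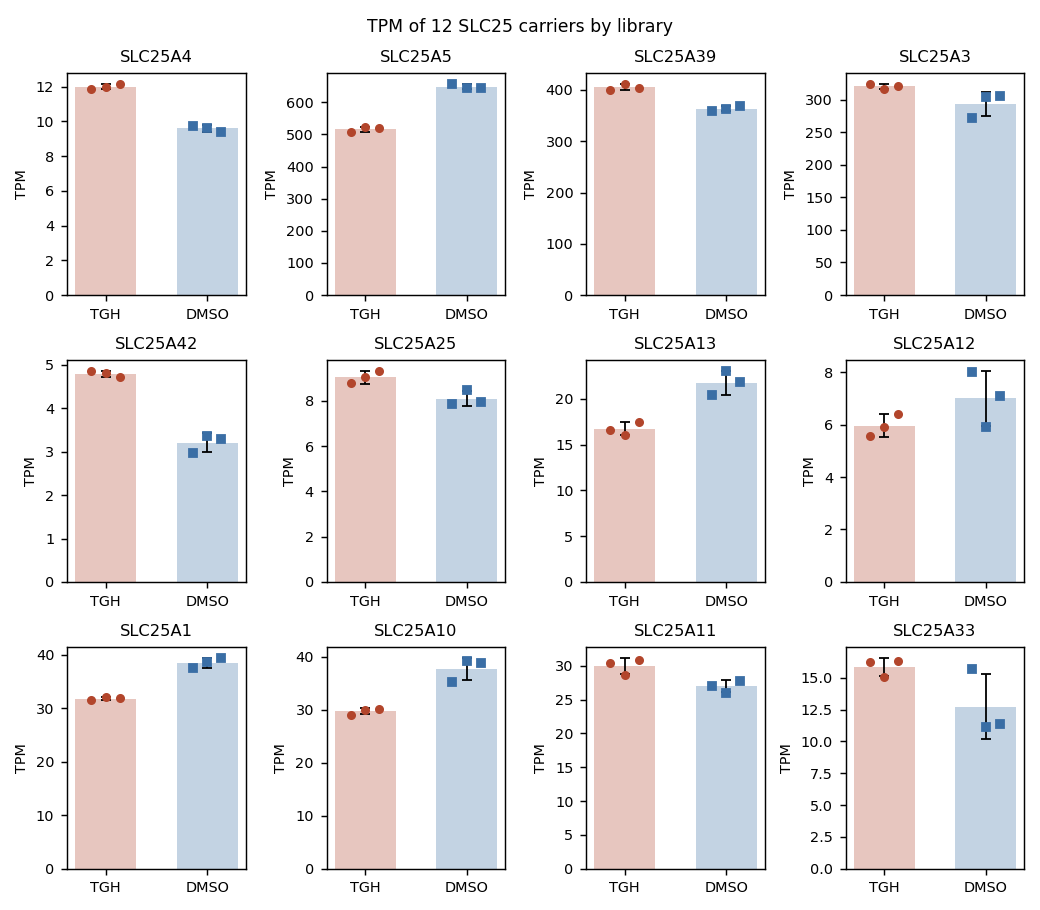
TPM of 12 carriers in each library (points) with the group mean (bars) and SD (lines), TGH on the left and DMSO on the right of each panel, n = 3 each. SLC25A5 is lower and SLC25A4 higher in every TGH library, and DMSO replicate 1 of SLC25A33 lies near the TGH libraries.

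Among carriers of nucleotides and cofactors 3 rose and 2 fell of 9 tested, against 28.9% higher and 26.3% lower of all genes tested. SLC25A42, which imports coenzyme A in exchange for adenine nucleotides, had the largest rise of the tested carriers on the deposited scale. It was at 4.86, 4.82 and 4.72 TPM in TGH libraries, against 2.96, 3.36 and 3.30 TPM in DMSO libraries, and rose by 0.46 (SE 0.054, adjusted p = 0.000522). The groups were far apart relative to their spread. SLC25A16, also linked to coenzyme A, was at 10.1, 9.31 and 9.35 TPM in TGH libraries, against 8.28, 7.79 and 8.65 TPM in DMSO libraries, and rose by 0.20 (SE 0.051, adjusted p = 0.0165). Without TGH replicate 1, its highest library, it was not called (0.16, adjusted p = 0.0621), nor against DMSO replicate 3 alone (0.13, adjusted p = 0.136).
SLC25A42 promoter, chr19:19063744-19064043 on the plus strand: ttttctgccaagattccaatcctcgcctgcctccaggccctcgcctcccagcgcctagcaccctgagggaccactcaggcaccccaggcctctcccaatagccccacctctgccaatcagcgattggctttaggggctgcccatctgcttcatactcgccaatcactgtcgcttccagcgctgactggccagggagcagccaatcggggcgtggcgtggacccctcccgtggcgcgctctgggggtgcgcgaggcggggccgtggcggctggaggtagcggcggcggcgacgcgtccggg

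SLC25A26 imports S-adenosylmethionine, the methyl donor for mitochondrial RNA and proteins. It was at 7.29, 7.02 and 6.91 TPM in TGH libraries, against 6.20, 6.46 and 6.12 TPM in DMSO libraries, and rose by 0.15 (SE 0.042, adjusted p = 0.0188). The groups did not overlap, but the call was lost without TGH replicate 1 (0.13, adjusted p = 0.0736), TGH replicate 2 (0.16, adjusted p = 0.0536) or DMSO replicate 3 (0.14, adjusted p = 0.0565), and after quantile normalization (0.07, adjusted p = 0.207). SLC25A17 is the peroxisomal member, a carrier of coenzyme A, FAD and NAD. It was at 15.4, 14.8 and 15.9 TPM in TGH libraries, against 17.5, 17.7 and 17.5 TPM in DMSO libraries, and fell by 0.19 (SE 0.035, adjusted p = 0.00418).

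SLC25A33 and SLC25A36 carry pyrimidine nucleotides for mitochondrial DNA and RNA synthesis. SLC25A33 was at 16.3, 15.1 and 16.3 TPM in TGH libraries, against 15.7, 11.2 and 11.4 TPM in DMSO libraries. DMSO replicate 1 lay among the TGH libraries, and the difference of 0.31 was not called (SE 0.121, adjusted p = 0.0653). It was called without that library (0.46, adjusted p = 0.000614) and against DMSO replicate 3 alone (0.45, adjusted p = 0.00408), and 20.7% of its 50-base windows occur in other genes. SLC25A36 had 8.10 ± 0.174 TPM with TGH and 7.80 ± 0.255 TPM in DMSO. SLC25A32, the folate and FAD carrier, had 27.2 ± 0.344 TPM with TGH and 28.4 ± 0.389 TPM in DMSO, and shares 87.9% of its windows with an overlapping gene on its strand. Its groups did not overlap, and it was called only after median scaling (-0.09, adjusted p = 0.0202). SLC25A51, the NAD carrier, had 6.81 ± 0.653 TPM with TGH and 6.62 ± 0.964 TPM in DMSO, and shares 20.3% of its windows with SLC25A52. As deposited, none of these 4 was called.

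Of the 5 carriers of iron, glycine and glutathione only SLC25A39 was called, against 55.2% of all genes tested. SLC25A39 imports glutathione into mitochondria and ranked next after SLC25A5 in level. It was at 399, 412 and 405 TPM in TGH libraries, against 358, 364 and 368 TPM in DMSO libraries, and rose by 0.16 (SE 0.019, adjusted p = 0.000653) without overlap. Its relative SLC25A40 was much lower, with 7.64 ± 0.729 TPM with TGH and 7.58 ± 0.713 TPM in DMSO, and its difference of 0.01 (SE 0.084) was not called. SLC25A38, the glycine carrier that heme synthesis needs, had 24.3 ± 0.384 TPM with TGH and 23.4 ± 1.94 TPM in DMSO and was not called either.

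The mitoferrins import iron for heme and iron-sulfur clusters. SLC25A37, mitoferrin-1, the form of red cell precursors, was at 15.7, 15.7 and 15.6 TPM in TGH libraries, against 13.2, 12.8 and 16.1 TPM in DMSO libraries. DMSO replicate 3 lay above all TGH libraries, and the difference of 0.16 was not called (SE 0.080, adjusted p = 0.143). Without that library it was called (0.25, adjusted p = 0.00294), while against that library alone it turned negative (-0.04, adjusted p = 0.472). SLC25A28, mitoferrin-2, the widely expressed form, was at 8.40, 10.1 and 8.69 TPM in TGH libraries, against 9.66, 11.3 and 9.75 TPM in DMSO libraries, with overlapping groups and a difference of -0.16 (SE 0.083, adjusted p = 0.147). SLC25A37 made up 63.4% ± 2.28 of the transcripts of both with TGH and 57.8% ± 4.54 in DMSO (exact two-sided permutation p = 0.2, adjusted over 3 pairs 0.3).

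No amino acid carrier was called higher: of 6 tested, 3 fell and 3 were not called. Of all genes tested 28.9% were called higher and 26.3% lower, so a count over 6 carriers is not a result about the group. SLC25A13, citrin, the liver-type aspartate/glutamate carrier of the malate-aspartate shuttle, had the largest fall of the tested carriers on the deposited log2(TPM + 1) scale. On that scale SLC25A30 was close to it at -0.35, and with a pseudocount of 0.1 the fall of SLC25A21, a carrier with under 2 TPM, was the largest at -0.48, against -0.38 for SLC25A13. After quantile normalization SLC25A21 was likewise lowest, at -0.46. SLC25A13 was at 16.6, 16.0 and 17.4 TPM in TGH libraries, against 20.4, 23.0 and 21.8 TPM in DMSO libraries, and fell by 0.36 (SE 0.053, adjusted p = 0.0014) without overlap. SLC25A12, aralar, the form of brain and muscle, was at 5.55, 5.89 and 6.42 TPM in TGH libraries, against 8.01, 5.92 and 7.09 TPM in DMSO libraries. The groups overlapped and its difference of -0.20 was not called (SE 0.101, adjusted p = 0.141), but it was without DMSO replicate 2 (-0.30, adjusted p = 0.0206). SLC25A13 made up 73.7% ± 1.07 of the transcripts of both with TGH and 75.6% ± 3.89 in DMSO (exact two-sided permutation p = 0.6, adjusted over 3 pairs 0.6).
SLC25A13 promoter, chr7:96322049-96322348 on the minus strand: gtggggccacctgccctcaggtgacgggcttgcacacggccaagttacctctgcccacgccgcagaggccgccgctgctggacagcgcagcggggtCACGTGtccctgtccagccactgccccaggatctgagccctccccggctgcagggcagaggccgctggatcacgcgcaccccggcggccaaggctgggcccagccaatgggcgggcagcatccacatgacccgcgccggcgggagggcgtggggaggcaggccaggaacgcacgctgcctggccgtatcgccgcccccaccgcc

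SLC25A44, a carrier of branched-chain amino acids, was at 16.6, 15.7 and 15.6 TPM in TGH libraries, against 18.1, 20.2 and 21.0 TPM in DMSO libraries, and fell by 0.29 (SE 0.058, adjusted p = 0.00561). SLC25A15, the ornithine carrier that links the matrix to the urea cycle, was at 6.13, 5.91 and 6.43 TPM in TGH libraries, against 7.79, 7.14 and 7.25 TPM in DMSO libraries, and fell by 0.23 (SE 0.050, adjusted p = 0.0078). Neither carrier's groups overlapped. SLC25A22, the main glutamate carrier, had 27.5 ± 0.756 TPM with TGH and 27.8 ± 2.43 TPM in DMSO, and SLC25A29, for basic amino acids, had 5.62 ± 0.373 TPM with TGH and 5.55 ± 0.0834 TPM in DMSO. Both were not called. The glutamate carrier SLC25A18 was low, with 0.165 ± 0.0748 TPM with TGH and 0.320 ± 0.0660 TPM in DMSO, and the other ornithine carrier, SLC25A2, was not expressed.

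Carriers of di- and tricarboxylates and acylcarnitines had 3 members lower and 1 higher of 5, against 26.3% lower and 28.9% higher of all genes tested. SLC25A1 exports citrate, the source of cytosolic acetyl-CoA for lipid synthesis. It was at 31.5, 32.04 and 31.9 TPM in TGH libraries, against 37.6, 38.6 and 39.4 TPM in DMSO libraries, and fell by 0.27 (SE 0.028, adjusted p = 0.000327). SLC25A10 exchanges malate and succinate for phosphate. It was at 29.1, 30.0 and 30.2 TPM in TGH libraries, against 35.2, 39.1 and 38.8 TPM in DMSO libraries, and fell by 0.33 (SE 0.045, adjusted p = 0.00103), with 56.9% of its 50-base windows also in an overlapping gene on its strand. The TGH libraries of both were tightly grouped below the controls.

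SLC25A11, the oxoglutarate/malate carrier and the partner of citrin in the malate-aspartate shuttle, went the other way. It was at 30.5, 28.6 and 30.9 TPM in TGH libraries, against 27.1, 26.0 and 27.8 TPM in DMSO libraries, and rose by 0.15 (SE 0.041, adjusted p = 0.0206). The call was lost without TGH replicate 1 (0.14, adjusted p = 0.0701), TGH replicate 3 (0.13, adjusted p = 0.0772) or DMSO replicate 2 (0.12, adjusted p = 0.0544), and against DMSO replicate 3 alone (0.11, adjusted p = 0.163). Of its exon bases, 12.9% lie opposite RNF167, which was at 36.04, 36.3 and 36.2 TPM in TGH libraries, against 41.2, 45.6 and 42.7 TPM in DMSO libraries, and fell by 0.25 (SE 0.040, adjusted p = 0.00207). The SLC25A11 promoter is shown as the only one of the 31 tested carriers with a window that holds the C/EBP-ATF core.
SLC25A11 promoter, chr17:4939997-4940296 on the minus strand: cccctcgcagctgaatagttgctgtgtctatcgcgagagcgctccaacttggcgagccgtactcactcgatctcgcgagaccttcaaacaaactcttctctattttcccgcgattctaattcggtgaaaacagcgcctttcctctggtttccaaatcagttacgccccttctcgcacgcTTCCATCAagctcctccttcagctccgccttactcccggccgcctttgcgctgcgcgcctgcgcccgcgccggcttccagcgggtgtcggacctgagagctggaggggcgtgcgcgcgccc

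SLC25A21, which carries oxoadipate from lysine and tryptophan breakdown, was at 1.14, 1.40 and 1.23 TPM in TGH libraries, against 1.80, 1.92 and 1.66 TPM in DMSO libraries, and fell by 0.31 (SE 0.076, adjusted p = 0.0129). Against DMSO replicate 3 alone the call was lost (-0.24, adjusted p = 0.0968). Its exons lie opposite other genes over 37.6% of their bases, among them PAX9, which had 5.14 ± 0.709 TPM with TGH and 4.83 ± 0.359 TPM in DMSO and was not called. SLC25A20, which brings acylcarnitines in for fatty acid oxidation, had 14.8 ± 0.323 TPM with TGH and 14.4 ± 1.67 TPM in DMSO and was not called (0.04, adjusted p = 0.659), though it was without DMSO replicate 1 (0.13, adjusted p = 0.0223).

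Of the relatives of the uncoupling proteins 1 rose, 1 fell and 1 was not called, against 55.2% of all genes tested called. SLC25A30, first described in kidney, was at 6.84, 7.14 and 6.26 TPM in TGH libraries, against 8.60, 8.72 and 9.36 TPM in DMSO libraries, and fell by 0.35 (SE 0.057, adjusted p = 0.00207) without overlap. SLC25A27, UCP4 of brain, was at 1.50, 1.77 and 1.55 TPM in TGH libraries, against 1.28, 0.828 and 1.19 TPM in DMSO libraries, and rose by 0.32 (SE 0.103, adjusted p = 0.0369). This call was lost in 9 of 15 alternatives, among them leaving out any library except DMSO replicate 1, with differences of 0.22 to 0.35 and adjusted p of 0.0547 to 0.117. SLC25A14, UCP5, had 7.87 ± 0.318 TPM with TGH and 8.31 ± 0.916 TPM in DMSO, and was called only without DMSO replicate 1 (-0.15, adjusted p = 0.0393).
SLC25A27 promoter, chr6:46652725-46653024 on the plus strand: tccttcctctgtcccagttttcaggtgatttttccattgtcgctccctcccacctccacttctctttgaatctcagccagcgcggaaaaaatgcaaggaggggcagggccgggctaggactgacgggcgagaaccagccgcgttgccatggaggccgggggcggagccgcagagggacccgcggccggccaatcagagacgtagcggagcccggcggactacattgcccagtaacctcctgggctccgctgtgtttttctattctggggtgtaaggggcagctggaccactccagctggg

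Of the carriers with uncertain cargo, SLC25A46, an outer membrane protein that shapes mitochondria, had 20.2 ± 1.25 TPM with TGH and 18.2 ± 1.04 TPM in DMSO. Its difference of 0.14 was not called (adjusted p = 0.0759), but it was without TGH replicate 3 (0.19, adjusted p = 0.0399). SLC25A43 had 19.9 ± 0.0615 TPM with TGH and 20.1 ± 0.419 TPM in DMSO and was not called. SLC25A45 was low, with 0.959 ± 0.0569 TPM with TGH and 0.663 ± 0.154 TPM in DMSO. SLC25A35 was low, with 0.547 ± 0.150 TPM with TGH and 0.448 ± 0.0568 TPM in DMSO, as was SLC25A53, with 0.187 ± 0.0471 TPM with TGH and 0.185 ± 0.0682 TPM in DMSO.

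SLC25A34, an orphan carrier, was at 0.170, 0.144 and 0.193 TPM in TGH libraries, against 0.0386, 0 and 0.0549 TPM in DMSO libraries. It lay under the limit of 1 TPM and was not tested above; with no limit on low values it was called at 0.18 (adjusted p = 0.00414). SLC25A45 then had 0.24 (adjusted p = 0.0499), and the other 8 low or unexpressed carriers were not called. SLC25A47, a liver carrier, was listed at 0 in all DMSO libraries and was at 0.0178, 0.0400 and 0.0253 TPM in TGH libraries. SLC25A48 was listed at 0 in 5 libraries and at 0.0154 TPM in TGH replicate 2, and SLC25A2 was at 0, 0.0253 and 0.0213 TPM in TGH libraries and 0 in all DMSO libraries. DMSO replicates 1 and 2 list more genes at 0 than the other libraries, and the part of this in the lowest carriers was not tested.

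**Figure D3:**
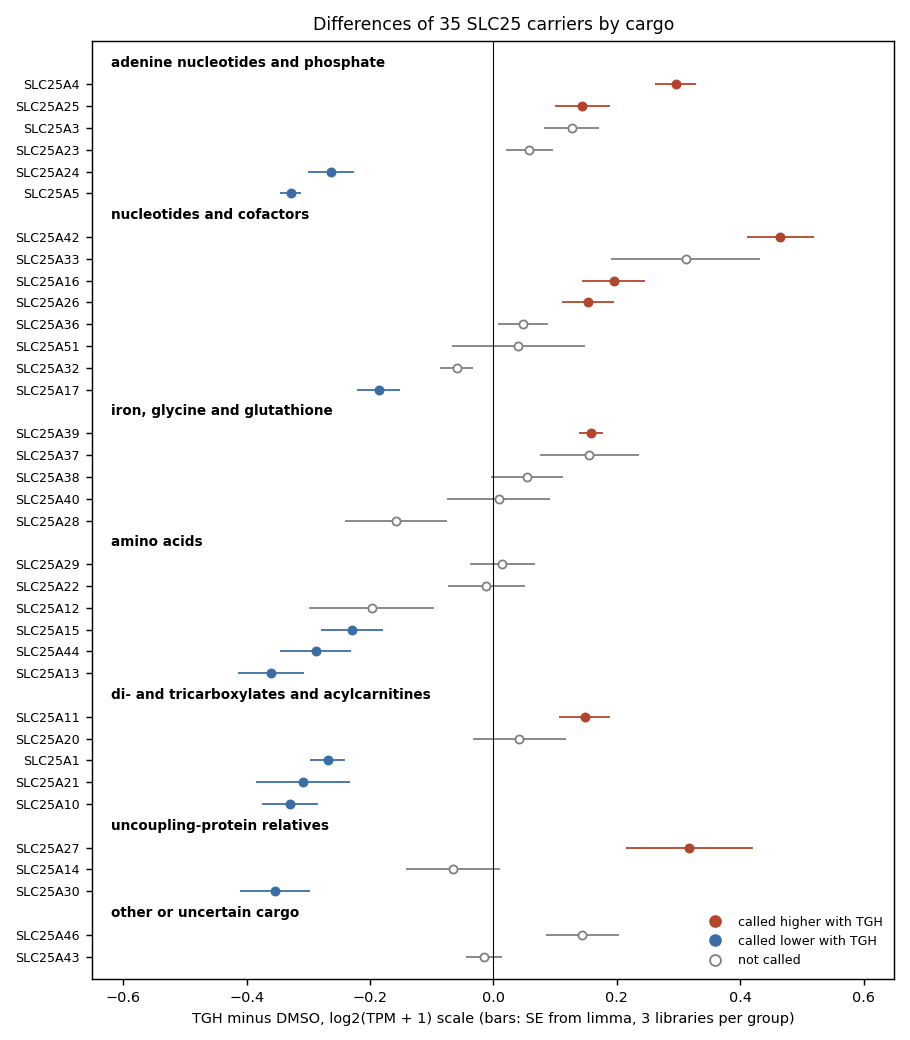
TGH minus DMSO on the log2(TPM + 1) scale for 35 of the 36 tested carriers, grouped by cargo, with the SE from limma as bars. Filled red points were called higher (8) and filled blue points lower (10 of the 11) at an adjusted p under 0.05. The 6 amino acid carriers hold no red point, and 28.9% of all genes tested were called higher.

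Promoter windows were matched for 38 of the 46 carriers, 31 of them tested. Those without a match include SLC25A16, SLC25A30, SLC25A32, SLC25A35, SLC25A37, SLC25A2 and SLC25A41. The motifs searched on both strands were TGATGNAA, the core of the C/EBP-ATF element, CCAAT followed after 9 bases by CCACG, the ER stress element, and CACGTG, the E-box. No matches overlap in the windows printed above. The C/EBP-ATF core was found in 1 of 31 tested carriers (3.23%), SLC25A11, against 4.46% of all 27305 genes with a window. The ER stress element was found in 0 of 31, against 0.0916% of all genes. The E-box was found in 8 of 31 (25.8%), against 8.78% of all genes. The 27305 genes include genes that were not tested here, unlike the 31 carriers. The share among tested genes was not computed, so these shares are not like for like. Those 8 are SLC25A26, which rose, SLC25A13, which fell, and SLC25A22, SLC25A33, SLC25A36, SLC25A38, SLC25A46 and SLC25A51, which were not called. A match describes letters in this window, and binding was not measured.

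The carriers were set beside 7 lists of genes that work with them, of whose 83 rows 76 were tested. Of these, 19 were higher and 29 lower, 63.2% called, with a median of -0.05. Of all genes tested 55.2% were called, with a median of 0.02. Among relatives with other symbols, UCP2, an uncoupling protein, was at 13.7, 13.8 and 13.6 TPM in TGH libraries, against 8.63, 12.1 and 10.5 TPM in DMSO libraries, and rose by 0.38 (SE 0.104, adjusted p = 0.0198). MTCH1 and MTCH2 of the outer membrane were not called, and UCP1 and UCP3 averaged under 1 TPM.

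Carriers reach the inner membrane through the receptor TOM70, small chaperones of the intermembrane space and the TIM22 insertase. Of 16 genes of this route 8 were lower and 0 higher, against 26.3% lower and 28.9% higher of all genes tested. The median of the 16 was -0.07. TIMM10, a small chaperone, had 98.6 ± 0.383 TPM with TGH and 119 ± 2.14 TPM in DMSO and fell by 0.27 (SE 0.022, adjusted p = 0.000107). TOMM40, the outer membrane channel, fell by 0.33 (adjusted p = 0.000496), TOMM70A, the carrier receptor, by 0.25 (adjusted p = 0.000569) and TOMM20, another receptor, by 0.25 (adjusted p = 0.000749). TIMM22, the insertase itself, had 19.2 ± 0.793 TPM with TGH and 19.6 ± 1.24 TPM in DMSO and was not called. Mitochondrial biogenesis regulators had 6 lower and 0 higher of 9, against 26.3% lower and 28.9% higher of all genes tested. TFAM, which packs and transcribes mitochondrial DNA, had 20.8 ± 0.698 TPM with TGH and 29.8 ± 0.889 TPM in DMSO and fell by 0.49 (SE 0.037, adjusted p = 8e-05). TFB2M, a transcription factor of the same genome, fell by 0.33 (adjusted p = 0.000103). The nuclear regulators of mitochondrial genes NRF1 and GABPA fell too, NRF1 by 0.25 (adjusted p = 0.0054) and GABPA by 0.17 (adjusted p = 0.00588).

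Other proteins that move cargo across mitochondrial membranes had 6 higher and 9 lower of 19, against 28.9% higher and 26.3% lower of all genes tested. MPC1, a subunit of the pyruvate carrier, which lies outside the SLC25 family, was at 22.2, 22.004 and 20.6 TPM in TGH libraries, against 9.06, 8.89 and 9.35 TPM in DMSO libraries. It rose by 1.16 (SE 0.041, adjusted p = 4.6e-06), more than any tested SLC25 carrier, whereas its partner MPC2 had 27.2 ± 0.863 TPM with TGH and 29.3 ± 0.701 TPM in DMSO and fell by 0.11 (SE 0.035, adjusted p = 0.0356). SFXN2, a sideroflexin, had 5.12 ± 0.364 TPM with TGH and 3.04 ± 0.157 TPM in DMSO and rose by 0.60 (SE 0.062, adjusted p = 0.00031). VDAC1, an outer membrane pore, fell by 0.30 (adjusted p = 0.000103), and VDAC2, another pore, by 0.14 (adjusted p = 0.000427).

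Enzymes that use the carriers' cargo also went both ways. In the malate-aspartate and glycerol phosphate shuttles 2 were higher and 2 lower of 6, against 28.9% higher and 26.3% lower of all genes tested. MDH2, the matrix malate dehydrogenase, rose by 0.19 (adjusted p = 0.000629) and GPD1L, a relative of the cytosolic glycerol phosphate dehydrogenase, by 0.16 (adjusted p = 0.0144). GOT2, the matrix aspartate aminotransferase, had 70.2 ± 1.25 TPM with TGH and 86.9 ± 3.74 TPM in DMSO and fell by 0.30 (SE 0.036, adjusted p = 0.000544), and GPD2, the mitochondrial glycerol phosphate dehydrogenase, fell by 0.37 (adjusted p = 0.000729). In mitochondrial folate and glycine metabolism 3 were higher and 2 lower of 8, beside the same shares of all genes tested. SHMT2, which makes glycine from serine, had 160.5 ± 1.75 TPM with TGH and 111 ± 1.17 TPM in DMSO and rose by 0.53 (SE 0.020, adjusted p = 5.3e-06). The folate dehydrogenases MTHFD2 and MTHFD2L rose, MTHFD2 by 0.28 (adjusted p = 0.000361) and MTHFD2L by 0.33 (adjusted p = 0.00263), while GCSH of the glycine cleavage system fell by 0.36 (adjusted p = 0.000479).

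Heme and iron-sulfur cluster genes had 7 higher and 2 lower of 15, with a median of 0.08. UROS, a heme synthesis enzyme of the cytosol, had 25.3 ± 0.841 TPM with TGH and 16.4 ± 0.647 TPM in DMSO and rose by 0.60 (SE 0.041, adjusted p = 5.5e-05). ISCU, the scaffold on which iron-sulfur clusters form, rose by 0.39 (adjusted p = 0.000493), and ALAS1, the first enzyme of heme synthesis, by 0.18 (adjusted p = 0.00173). CPOX, a later enzyme of the pathway, fell by 0.46 (adjusted p = 0.000255). These counts stand beside the 28.9% higher and 26.3% lower of all genes tested, and no list was tested as a set.

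**Figure D4:**
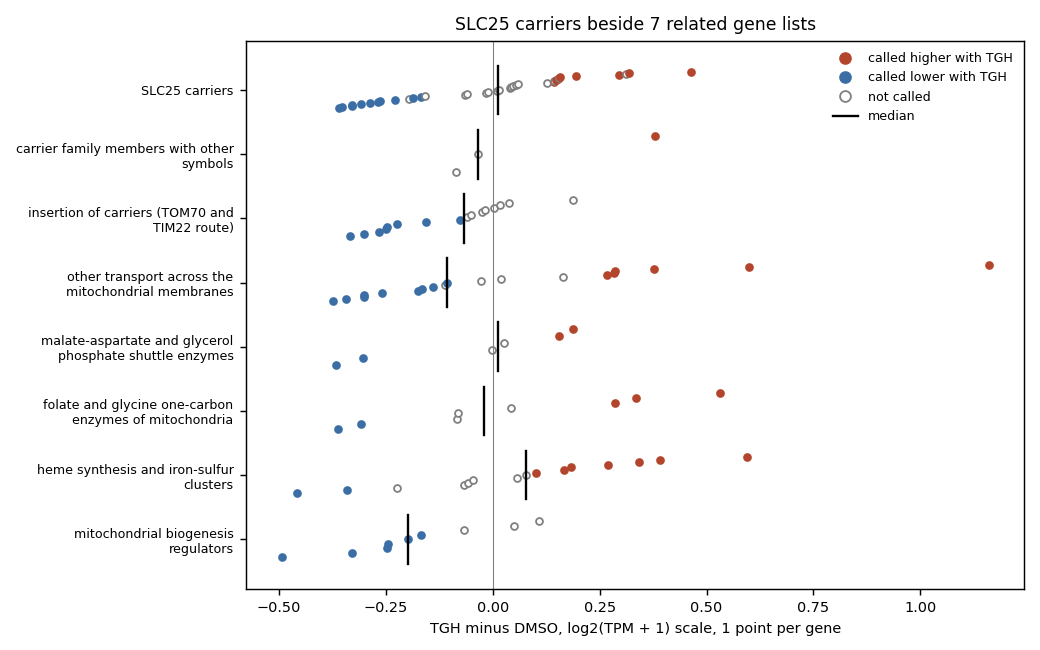
TGH minus DMSO on the log2(TPM + 1) scale, 1 point per tested gene, for the 36 SLC25 carriers and 7 related lists; filled red points were called higher, filled blue points lower, and black lines are medians. The carriers stay within 0.5 of 0, MPC1 at 1.16 stands alone on the right, and the insertion route and the biogenesis regulators hold no red point. Of all genes tested 28.9% were called higher.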

How the data were processed

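RNA of 6 PC-3 libraries was sequenced after ribosomal RNA depletion with a directional kit, per the labels' protocols. The authors deposited 1 table of log2(TPM + 1) per gene symbol; the submitters' processing notes name hg19, and the sources used here give no aligner, quantifier, annotation or strand setting. Read depth is unknown, since TPM keeps no read total; listed TPM sum to 502380 to 518870 per library.

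Genes averaging at least 1 TPM (12018) were compared with limma 3.58.1 in R 4.3.3 on the deposited log2 values, with group as the only term, a variance trend, two-sided tests, Benjamini-Hochberg adjustment over all genes tested and calls under 0.05. Differences on this scale understate the change of low genes. The fit was tested on simulated data. Isoform shares were compared by exact permutation, a measure chosen after values were seen. At most 1 value above 0 was identical between libraries of a group.

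Members and lists were chosen with earlier results of these data known. Values in every library are given for up to 10 called carriers per direction with the largest differences, set isoform pairs and carriers listed at 0 in some libraries; other carriers are given by group means unless a library stood apart. Of each list up to 4 called genes with the smallest p are named; MPC2, MTCH1, MTCH2, UCP1, UCP3 and TIMM22 were added after their values were seen. Promoters are those of the 3 largest rises and 2 largest falls, of which SLC25A30 had no window; SLC25A5 and SLC25A11 were added after their values were seen. Shared windows and exon overlap come from GENCODE v29 on GRCh38, which is not the authors' build. Alternatives were pseudocounts of 0.1 and 5, no filter or at least 5 TPM, median scaling, quantile normalization, variances without trend or robust, a replicate block, each library left out, and DMSO replicate 3 as the lone control. 1 called carrier is counted but its values are not reported here. Figures were drawn with matplotlib 3.10.9.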

Additional observations from a re-analysis of the deposited data

How the results depend on the processing

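Of the 19 called carriers, 12 kept direction and call in every alternative run for them. For SLC25A42 these were 15, since it lies under the limit of 5 TPM, and for the others 16: SLC25A4, SLC25A39, SLC25A13, SLC25A30, SLC25A10, SLC25A5, SLC25A44, SLC25A1, SLC25A24, SLC25A15 and SLC25A17. SLC25A23 and SLC25A43 stayed uncalled with the same sign in all 16. The count called higher, 8, was 5 after quantile normalization, 5 against DMSO replicate 3 as the lone control and 4 to 10 when 1 library was left out. The count called lower, 11, stayed within 10 to 12. With the replicate number as a block, 7 carriers were higher and 12 lower, and over all genes 3273 were higher and 2958 lower, against 3479 and 3156 without it. The block ended the calls of SLC25A25 (0.14, adjusted p = 0.0531) and SLC25A27 (0.32, adjusted p = 0.0802) and made calls of SLC25A28 (-0.16, adjusted p = 0.0259) and SLC25A33 (0.31, adjusted p = 0.0411). Same-numbered libraries had correlations of deviations of 0.00877, 0.0544 and 0.229, and differently numbered ones had -0.158 to 0.096. These values do not settle whether the numbers pair the libraries. The labels do not pair them, so the main fit took the number only as a name.

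Small differences of uncalled carriers changed sign. Quantile normalization gave 0.00098 for SLC25A22, -0.072 for SLC25A29, -0.012 for SLC25A36, -0.057 for SLC25A40 and -0.037 for SLC25A51. Median scaling gave -0.016 for SLC25A29 and -0.023 for SLC25A40. The lone control gave -0.037 for SLC25A37 and -0.084 for SLC25A51; for these 2 values the other DMSO libraries are absent by construction. Leaving out 1 library gave ranges of -0.0028 to 0.13 for SLC25A20, -0.078 to 0.043 for SLC25A22, -0.031 to 0.043 for SLC25A29, -0.0028 to 0.11 for SLC25A38, -0.042 to 0.078 for SLC25A40 and -0.069 to 0.11 for SLC25A51. The cause of the other changes was not tested. The median of all genes tested was 0.02 as deposited, -0.01 after median scaling and -0.03 after quantile normalization. With the lone control, the variance comes from the TGH libraries alone.

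With 3 libraries a group, 1 line, 1 dose and 1 time, and TPM without read totals, the SE of a tested carrier ran from 0.017 for SLC25A5 to 0.121 for SLC25A33 on the log2 scale. Levels of carriers under 1 TPM cannot be given a counting error.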
